A study of Mus musculus with 24 samples.

Results

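The mandibles and maxillae of mouse embryos that lack the TGF-β type II receptor in the neural crest were compared on 12 arrays, 6 of mandible and 6 of maxilla, chosen by their labels from the 24 arrays of the series. The mutant embryos, of the strain given as C57B6, came from a cross of Wnt1-Cre;Tgfbr2 fl/+ with Tgfbr2 fl/fl mice and were collected at E14.5. They were recognised by cleft palate and a calvarial defect. Each jaw was cut into a distal and a proximal end, which gave 4 mutant groups of 3 arrays. The other 12 arrays hold the same 4 regions of control littermates at the same age, whose alleles the labels do not give, although every embryo of this cross inherits a floxed allele from its Tgfbr2 fl/fl parent. The tissue field calls the pieces bone, but the design text describes whole dissected jaws, and the arrays carry muscle, skin, nasal and nerve genes as well. Expression is given as log2 units of the robust multi-array average (RMA), where 1 unit is a doubling, and a jaw difference is mandible minus maxilla. The arrays carry replicate numbers 1 to 3 without a statement that these are separate embryos or litters, so each p-value reflects how far these samples vary, and that variation may be technical. Ends of a jaw that share a number tended to vary together but are counted as separate arrays, so p-values with ends averaged may be too small.

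The lower and the upper jaw both form from neural crest cells of the first pharyngeal arch, and the crest of both carries Dlx1 and Dlx2. In the mandibular part, endothelin-1 from the epithelium acts through its receptor Ednra on the crest and turns on Dlx5 and Dlx6, which in turn raise Hand2, a basic helix-loop-helix factor of the ventral arch. Maxillary crest is known for Pou3f3, for the nuclear receptors Nr2f1 and Nr2f2, and for Irx factors and Six2. Wnt1-Cre acts in the neural crest lineage, which makes jaw bone, cartilage, tendon and connective tissue, whereas muscle fibres, surface epithelium, endothelium and macrophages come from other lineages and keep the receptor.

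Dlx proteins are homeodomain factors, and homeodomains are known to bind a core that reads TAATTA. The promoters of 2 mandibular genes and of 1 maxillary gene that the comparison turns on are shown with that core in capitals where it occurs. Each runs from 250 bases before to 50 after a start site, 5′ to 3′, from RefSeq on GRCm38.p6. Hand2 lies at chr8:57320733-57321032 on the plus strand, the second Dlx6os1 start at chr6:6869484-6869783 on the minus strand, and Pou3f3 at chr1:42695518-42695817 on the plus strand.
Hand2: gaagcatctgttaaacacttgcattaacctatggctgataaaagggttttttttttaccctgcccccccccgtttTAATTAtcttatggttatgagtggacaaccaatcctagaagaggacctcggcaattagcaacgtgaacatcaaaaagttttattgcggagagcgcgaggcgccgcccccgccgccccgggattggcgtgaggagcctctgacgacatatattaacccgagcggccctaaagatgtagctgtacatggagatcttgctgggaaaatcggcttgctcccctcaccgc
Dlx6os1: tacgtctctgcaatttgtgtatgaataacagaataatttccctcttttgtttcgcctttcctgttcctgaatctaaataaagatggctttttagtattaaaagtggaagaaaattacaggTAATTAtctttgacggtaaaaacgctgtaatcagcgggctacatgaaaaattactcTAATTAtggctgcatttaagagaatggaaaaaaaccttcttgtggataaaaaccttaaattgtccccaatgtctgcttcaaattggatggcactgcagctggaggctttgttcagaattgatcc
Pou3f3: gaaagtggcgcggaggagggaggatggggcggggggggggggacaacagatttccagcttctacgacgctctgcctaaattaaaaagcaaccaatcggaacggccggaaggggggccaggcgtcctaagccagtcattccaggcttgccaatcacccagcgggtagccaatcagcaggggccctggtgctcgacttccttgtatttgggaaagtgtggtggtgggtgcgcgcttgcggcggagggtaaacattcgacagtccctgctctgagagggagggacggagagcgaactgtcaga
The core reads the same on both strands. It starts at base 76 of the Hand2 promoter, at bases 121 and 177 of the Dlx6os1 promoter, and is not among these letters for Pou3f3. Of the mandibular identity list, 11 of 18 genes matched 19 promoters, of which 4, in 3 genes, held the core. Of the maxillary list, 13 of 15 genes matched 15 promoters and 0 held it. Over the 32851 promoters of this length that were counted, with 1 chromosome left out, 5.29% held it.

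The labels were checked against marker genes first. Hand2 was higher in each of the 6 mutant mandible arrays than in each of the 6 mutant maxilla arrays, and Pou3f3 was lower in each. The remaining jaw markers were less clear in mutants. Tbx22 did not pass the test (-0.43 ± 0.32, limma adjusted p = 0.431). Shox2, known from the palatal shelf, was lower in mandible by the fit (-0.63 ± 0.18, limma adjusted p = 0.028) but higher in control mandible (0.65 ± 0.18, limma adjusted p = 0.00775). Dlx5, Dlx6 and Nr2f1 overlapped between the mutant jaws, and Pitx1 did not. Tgfbr2 itself read from 12.2 to 12.6 in mutants and from 11.5 to 12.1 in controls, and its mutant jaw difference was -0.02 ± 0.06 (limma adjusted p = 0.849). The sources used here do not say which exon is deleted, so this probe set checks nothing. Array medians lay between 6.93 and 7.0.

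Among the mutant maxillae, 3 arrays stood apart from the others of their jaw: distal maxilla 1, proximal maxilla 1 and proximal maxilla 2. Their nasal epithelium genes, summarised as a centred mean over 17 genes, lay at -0.50, -0.93 and -0.65, against 0.67 to 1.59 in the other 3 maxilla arrays and -1.22 to -0.82 in mandible. Their skeletal muscle genes lay at 0.96, 1.73 and 0.81, against -2.02 to -0.18, and their cartilage genes at -2.24, -2.31 and -2.54, against 0.38 to 0.69. Because of this, many results with ends averaged are also given without these 3 arrays. Counts and most calls at single ends and for the interaction of jaw and end are not. The 3 arrays were set apart by these list values, so wider nasal and muscle gaps without them follow from that choice. Leaving them out keeps 1 proximal maxilla array, number 3, whose spread is taken from the other groups. That array lay 0.54 log2 units (root mean square) from its nearest group mate, and proximal maxilla 1 and 2 lay 0.244 from theirs. Whether the 3 arrays differ in the tissue taken or in gene activity was not tested, and in whole tissue fewer cells of a type and less RNA per cell cannot be told apart.

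The mandible and maxilla of mutants differed, with Hand2 the mandible-high gene of largest difference and Bpifa1, a nasal epithelium gene described with its list, the furthest in the maxilla direction among the named genes. Across 12811 genes tested, 1547 differed between mutant mandible and maxilla with the ends averaged, which is 12.1% (limma, Benjamini-Hochberg adjusted p under 0.05). Of these, 651 (5.08%) were higher and 896 (6.99%) lower in mandible, so 42.1% of the calls were higher; with quantile normalisation repeated over these arrays the split was 1059 higher to 800 lower, 57.0% higher. At least a 2-fold difference was fitted for 222 of the called genes, 70 higher and 152 lower. Of all genes tested, 73 (0.570%) had every mandible value above every maxilla value and 181 (1.41%) had every mandible value below. Without the 3 maxilla arrays named above the calls rose to 879 higher (6.86%) and 1541 lower (12%), and with the distal and proximal values averaged by jaw and number they fell to 264 (2.06%) and 332 (2.59%).

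Of the 18 mandibular identity and endothelin genes tested, 9 were higher and 1 was lower in mutant mandible, against the 5.08% and 6.99% of all genes. In controls 12 were higher and 2 lower, where 16.9% and 19.4% of all genes were called, and 8 of the 9 were higher in both genotypes. The median difference of the list was 0.48 in mutants and 0.68 in controls, against -0.02 and 0.01 over all genes tested. Of the 20 genes listed, Gbx2 did not pass the filter on low values and Ednra had no probe set named here. With the 3 maxilla arrays left out, the counts were 8 higher and 1 lower: Gsc, Hand1 and Edn1 dropped out, and Barx1, higher, and Ece1, lower, came in. The mean over the list kept the 6 mutant mandible arrays, at 0.22 to 0.45, above the 6 maxilla arrays, at -0.71 to -0.19.

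Hand2, which patterns the ventral arch and is needed for the lower jaw, showed the largest mandible-high difference of the named genes with ends averaged. It read 12.40, 12.98 and 12.74 in mutant distal mandible and 9.48, 9.96 and 10.23 in proximal mandible. In maxilla it read 7.39, 5.27 and 5.72 at the distal and 6.56, 6.33 and 6.32 at the proximal end. No maxilla array reached the lowest mandible array, and the highest maxilla value was that of distal maxilla 1, one of the 3 arrays low in nasal genes. The difference was 5.04 ± 0.26 (SE; limma adjusted p = 1.87e-09) beside 5.24 in controls, and the call was kept in 36 of 36 alternative settings. Of the 6 maxilla values 5 lay below the array medians, and the deposited values carry no detection call, so no fold is given. It was larger at the distal end, 6.58, than at the proximal end, 3.49 (limma interaction adjusted p = 0.000951).

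Pitx1, a paired-type homeodomain factor of the lower jaw and hindlimb, was also higher in each mandible array. Its values were 11.12, 10.96 and 10.90 in mutant distal mandible and 10.91, 11.29 and 11.25 in proximal mandible, against 8.71, 7.85 and 9.33 in distal and 8.28, 9.23 and 9.46 in proximal maxilla. The jaws did not overlap, with a difference of 2.26 ± 0.23 (limma adjusted p = 1.12e-05) beside 1.79 in controls. Nkx2-3, a homeobox gene of pharyngeal and oral tissue, lay at 8.06 to 9.20 (median 8.57) in mandible and 7.03 to 7.41 (median 7.18) in maxilla. Its jaws did not overlap either, and it differed by 1.44 ± 0.12 (limma adjusted p = 9.29e-07). Gsc, a homeobox gene of the mandible and ear, was called at 1.78 ± 0.39 (limma adjusted p = 0.00534), but without the 3 maxilla arrays it missed the threshold, at 0.95 (adjusted p = 0.0859). Hand1, a partner of Hand2, passed at 0.28 (limma adjusted p = 0.0357) and missed the threshold without these arrays (adjusted p = 0.0644). The Hand1 call held in 23 of 35 settings and was lost without any one of several mutant arrays, whereas those of Pitx1 and Nkx2-3 held in 36 of 36 each.

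Dlx3, Dlx5 and Dlx6, homeobox genes of the ventral arch, differed between mutant jaws at the proximal end and did not pass the test at the distal end. Dlx5 read 11.41, 11.79 and 11.67 in mutant proximal mandible and 10.29, 10.47 and 10.08 in proximal maxilla, and 10.91, 11.21 and 10.89 against 10.54, 10.55 and 11.37 at the distal end. The proximal pieces did not overlap and the distal ones did. For Dlx3, Dlx5 and Dlx6 the proximal differences were 1.56, 1.34 and 1.57, and the distal ones 0.22, 0.19 and 0.10. The jaw differences of the ends differed for all 3 genes, where 10.3% of all genes were called (limma interaction adjusted p = 0.0132, 0.011 and 0.0092). Averaged over ends they were 0.89, 0.76 and 0.84 in mutants, all called, beside 0.50, 0.57 and 0.75 in controls. Dlx6os1, the non-coding RNA of the Dlx5 and Dlx6 locus whose promoter is printed above, differed by 1.22 ± 0.33 (limma adjusted p = 0.0201), kept in 31 of 36 settings and lost without distal maxilla 2 or proximal maxilla 3. Dlx4 missed the threshold, at 0.56 (limma adjusted p = 0.0753).

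Dlx1 and Dlx2, listed here with the maxillary factors because the upper arch depends on them, were higher in mandible in both genotypes. Dlx2 read 10.70, 10.46 and 10.61 in mutant distal mandible and 10.04, 9.99 and 10.04 in proximal mandible, against 9.08, 8.98 and 9.88 in distal and 8.58, 9.51 and 7.79 in proximal maxilla. The jaws did not overlap. Its difference was 1.34 ± 0.22 (limma adjusted p = 0.000629) beside 1.95 in controls. Dlx1 differed by 1.15 ± 0.28 (limma adjusted p = 0.0124) beside 2.45 in controls, and the genotypes' gap of -1.30 missed the threshold (limma adjusted p = 0.0503). Dlx1as, the antisense RNA of Dlx1, differed by 1.86 in mutants and 2.88 in controls.

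Members of the endothelin and related group that were not higher in mutant mandible behaved in different ways. Edn1, the ligand, was the 1 gene called lower, at -0.32 ± 0.09 (limma adjusted p = 0.0232), beside 0.05 in controls, and lost the call without the 3 maxilla arrays (adjusted p = 0.25). Ece1, the enzyme that activates it, was called lower in control mandible at -0.64 and not in mutants at -0.27 (limma adjusted p = 0.0735), but was called in mutants without the 3 maxilla arrays (-0.464, adjusted p = 0.0002). Mef2c, a transcription factor downstream of Ednra, was 0.08 in mutants and 0.77 in controls. Cited1, a transcriptional coregulator, read 7.04 to 8.45 (median 7.64) in mutant mandible and 6.90 to 8.64 (median 7.79) in mutant maxilla, and 8.01 to 9.41 (median 8.79) against 6.38 to 7.43 (median 7.17) in controls. The mutant jaws overlapped throughout, at -0.04 ± 0.22, beside 1.68 ± 0.22 in controls. These 2 genes were the ones of the list whose jaw difference itself differed by genotype, where 8.25% of all genes were called (limma adjusted p = 0.0138 and 0.00843). When those 3 maxilla arrays were left out, Mef2c lost that call and Cited1 kept it, at -1.19. With end values averaged by jaw and number before the fit, Cited1 lost it (limma adjusted p = 0.101). Barx1, a homeobox gene of molar mesenchyme, was 0.41 ± 0.39 in mutants (limma adjusted p = 0.56) beside 1.39 in controls, and 1.15 in mutants without the 3 arrays (adjusted p = 0.0254). Tlx2, a homeobox gene, and Rgs5, a pericyte gene, were 0.04 and -0.06 in mutants, beside -0.06 and -0.86 in controls.

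**Figure D1:**
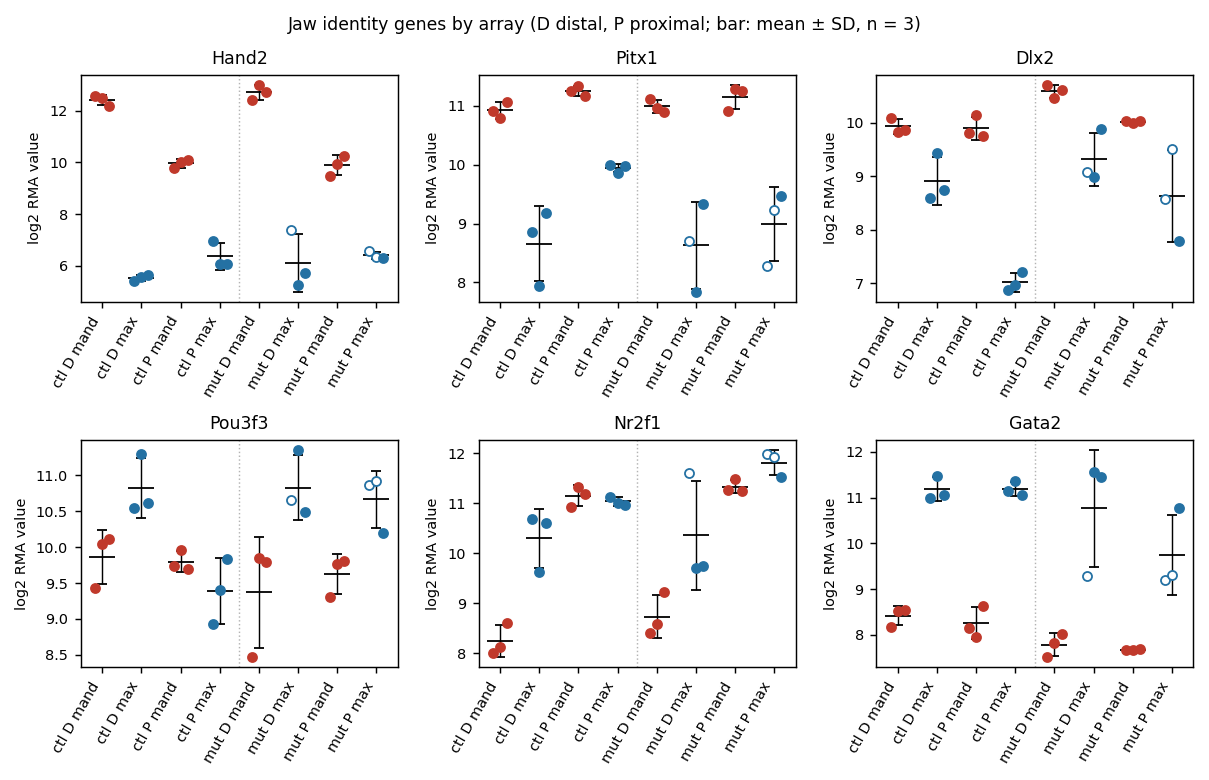
Log2 RMA level (vertical axis) of Hand2, Pitx1, Dlx2, Pou3f3, Nr2f1 and Gata2 on each array, by genotype, end and jaw (horizontal axis); red is mandible, blue is maxilla, bars are the mean ± SD of 3 arrays, and open circles are the 3 mutant maxilla arrays low in nasal genes. Hand2 and Pitx1 do not overlap between mutant jaws, Pou3f3 and Gata2 lie higher in each mutant maxilla array, and the open circles lie below every mandible value for Hand2 and Pitx1.

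Of the 15 maxillary identity genes tested, 7 were lower in mutant mandible and 2 were higher, Dlx1 and Dlx2, where 6.99% and 5.08% of all genes were. The control counts were also 7 lower and 2 higher, against 19.4% and 16.9% of all genes, and 4 were lower in both genotypes: Nr2f1, Irx3, Irx5 and Six2. The medians were -0.36 in mutants and -0.28 in controls. With the 3 maxilla arrays left out, 4 were lower, Pou3f3, Irx3, Irx5 and Six2, and 2 higher. The list mean of single arrays ran from -0.37 to 0.05 in mutant mandible and from 0.00 to 0.34 in mutant maxilla, so the jaws overlapped slightly.

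Pou3f3, a POU homeodomain factor of the upper arch, did not overlap between the mutant jaws. It read 8.47, 9.85 and 9.79 in mutant distal mandible and 9.30, 9.77 and 9.81 in proximal mandible. In mutant maxilla it read 10.65, 11.35 and 10.49 at the distal and 10.87, 10.92 and 10.20 at the proximal end. Every maxilla array was above every mandible array. The difference was -1.25 ± 0.24 (limma adjusted p = 0.00245) in mutants and -0.28 ± 0.24 in controls (limma adjusted p = 0.4), and the gap between genotypes, -0.98, missed the threshold (limma adjusted p = 0.082).

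Nr2f1, an orphan nuclear receptor, lay at 8.40 to 11.49 (median 10.23) in mutant mandible and 9.70 to 11.98 (median 11.56) in mutant maxilla, with overlap. It was called at -1.05 ± 0.27 (limma adjusted p = 0.0153) beside -0.97 in controls, but missed the threshold without the 3 arrays. It also missed it with end values averaged by jaw and number before the fit (limma adjusted p = 0.0604). Its relative Nr2f2 was -0.50 (limma adjusted p = 0.0154) and likewise missed it without the 3 arrays (adjusted p = 0.11). Of the Iroquois factors, Irx5 did not overlap between mutant jaws, at -0.58 ± 0.13 (limma adjusted p = 0.0055) beside -0.41 in controls. Irx3 was -0.59 beside -0.62, both called, whereas Irx2 had the opposite sign in controls, at 0.44, and was not called there. Irx2 was called at -1.36, carried by the proximal end at -2.98, and not without the 3 arrays (adjusted p = 0.207). The calls with ends averaged held in 24 of 36 settings for Irx2, 33 of 36 for Irx3, 35 of 36 for Irx5, 36 of 36 for Pou3f3 and 26 of 36 for Six2.

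Six2, a factor of undifferentiated mesenchyme, was lower in mutant mandible at the distal end, at -1.85 ± 0.26 (limma adjusted p = 0.000458). At the proximal end it was 0.55 ± 0.26 (limma adjusted p = 0.153), and the ends differed (limma interaction adjusted p = 0.000366). Six4 differed between genotypes, at 0.20 in mutants and -0.52 in controls (limma adjusted p = 0.0492), a call that was lost without the 3 arrays (adjusted p = 0.419). Meis2, Cyp26b1, Zfhx3, Nr2f6 and Tshz1 did not pass the test in mutants, at -0.10, -0.36, -0.07, -0.13 and 0.04.

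Other genes without overlap between mutant jaws extended the mandible-high side. Lhx8, a LIM homeobox gene of oral mesenchyme, read 11.07 to 11.58 (median 11.37) in mutant mandible and 9.11 to 10.91 (median 10.07) in maxilla, a difference of 1.23 ± 0.27 (limma adjusted p = 0.00674) beside 2.24 in controls. Nr5a2, a nuclear receptor, differed by 1.51, Tac1, the precursor of substance P, by 1.49 and Fam167a by 1.48. Tlx1, a homeobox gene, differed by 1.15, and by 2.06 at the distal end. Smaller differences without overlap were those of Myrip (1.14), Kcnab1 (1.00), Serpinb6b (0.99), Ltb (0.96) and Smpdl3b (0.79). All of these were called by limma after Benjamini-Hochberg adjustment.

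Counts of signalling genes stand against all-gene shares of 5.08% higher and 6.99% lower in mutants and of 16.9% and 19.4% in controls. The lists share members, so their counts are not independent. With Msx1, the higher genes of the distal jaw and BMP-dependent list were Hand2 and Hand1, counted above with the mandibular identity list. Higher tooth germ genes included Dlx1, Dlx2, Lhx8, Msx1 and Shh, which other lists also hold. Hedgehog genes included 6 higher and 3 lower of 15 in mutant mandible, also without the 3 arrays. Shh, the ligand, was 1.15 ± 0.33, Ptch1, its receptor and target, 0.62 ± 0.08, and Foxf1, a target in mesenchyme, 1.78 ± 0.35, all called. Ptch1 did not overlap between mutant jaws, and read 12.39 to 12.62 (median 12.50) in mandible and 11.39 to 12.30 (median 11.97) in maxilla. The coreceptors Boc and Cdon were lower, at -0.52 and -0.47. In controls 8 hedgehog genes were higher and 1 lower. Of 22 Wnt genes, 5 were higher and 2 lower, 6 and 1 without the 3 arrays, and 9 and 1 in controls. The secreted antagonists Sfrp4, Wif1 and Frzb were among the 5, at 2.07, 1.04 and 1.00, and Axin2, a feedback target, was lower at -0.41. FGF genes gave 3 higher and 3 lower of 19, also without the 3 arrays, beside 8 and 4 in controls, with Fgf3 at 0.84 and Fgf10 at -0.60. Distal jaw and BMP-dependent genes gave 3 higher and 0 lower of 14, Msx1 among them at 0.76, but 2 higher and 3 lower without the 3 arrays and 3 and 3 in controls. Tooth germ genes gave 8 higher and 2 lower of 21, 10 and 1 without the 3 arrays, and 11 and 1 in controls.

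The largest maxilla-high differences without overlap were not those of the maxillary identity list. Gata2, a zinc finger factor, read 7.52, 7.82 and 8.02 in mutant distal mandible and 7.66, 7.67 and 7.68 in proximal mandible, against 9.29, 11.55 and 11.44 in distal and 9.20, 9.30 and 10.76 in proximal maxilla. Neither it nor Gata3 overlapped between mutant jaws. Gata2 differed by -2.53 ± 0.32 (limma adjusted p = 5.61e-05) beside -2.85 in controls, and Gata3 by -2.83 ± 0.42 beside -1.87. Krt25 and Krt73, keratins of the hair follicle's inner sheath, were -2.99 and -1.97. Adh1, an alcohol and retinol dehydrogenase, was -2.16, and Kera, a proteoglycan of cornea and tendon, -1.90, beside 0.80 in controls (limma interaction adjusted p = 0.00639). Pax6, an eye and nasal placode factor, was -2.09 on its brighter probe set, while another of its probe sets gave -0.01. Stmn2 and Rtn1, which are neuronal, were -1.92 and -2.00.

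Of 10 frontonasal and midface genes, 6 were lower and 0 higher in mutant mandible, where 6.99% and 5.08% of all genes were, also 6 and 0 without the 3 arrays. In controls 8 were lower, where 19.4% of all genes were. For the genotype test of the jaw difference, used below, 3.93% of all genes were called upwards and 4.32% downwards. In mutants, Lhx2, Pax7, Alx1 and Tfap2a were -3.27, -1.52, -1.64 and -0.84. Alx1, a homeodomain factor of the midface, was -3.0 at the proximal and -0.27 at the distal end. Palate shelf genes gave 3 higher and 5 lower of 19, but 5 higher and 3 lower without the 3 arrays, beside 10 higher and 1 lower in controls. Osr2, a zinc finger factor of the palatal shelf, lay at 9.04 to 10.35 (median 9.84) in mutant mandible and 10.52 to 11.01 (median 10.88) in mutant maxilla without overlap, a difference of -0.99 ± 0.16 (limma adjusted p = 0.000653), beside -0.24 in controls. Of the palate genes 3 differed by genotype, all towards lower in mutant mandible, and 1 did without the 3 arrays. Genes shared by both jaws' mesenchyme gave 1 higher and 1 lower of 15, 2 and 3 without the 3 arrays, beside 4 and 7 in controls.

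Nasal epithelium genes were 6 lower and 0 higher of 17 in mutant mandible, where 6.99% of all genes were lower. In controls 15 were lower, where 19.4% of all genes were. The genotype test called 8, towards a smaller jaw gap in mutants, where 3.93% of all genes were called upwards and 4.32% downwards. Without the 3 maxilla arrays 11 were lower and 0 differed by genotype. Bpifa1, a secreted protein of nasal epithelium, read 10.35, 11.19 and 12.59 at the distal and 4.55, 4.59 and 13.18 at the proximal end of mutant maxilla, against 4.37 to 5.62 (median 4.62) in mandible. Its lowest maxilla values were those of the arrays set apart above by the nasal list. Wider nasal gaps without them follow from that choice. The Bpifa1 difference was -4.65 with them and -7.77 without, beside -7.26 in controls. Otx2, a homeobox gene of the anterior head and nasal placode, moved from -2.73 to -5.49 in the same way. Neuron genes were 4 lower of 17, beside 13 in controls and 12 without the 3 arrays, and 4 differed by genotype. Eye and pigment genes were 5 lower of 7 in mutants, 3 in controls and 5 without the 3 arrays, with the melanocyte genes Dct at -2.70 and Pmel at -2.25. Schwann cell and glia genes were 3 lower of 10, 2 without the 3 arrays, Sox10 among them at -0.77.

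**Figure D2:**
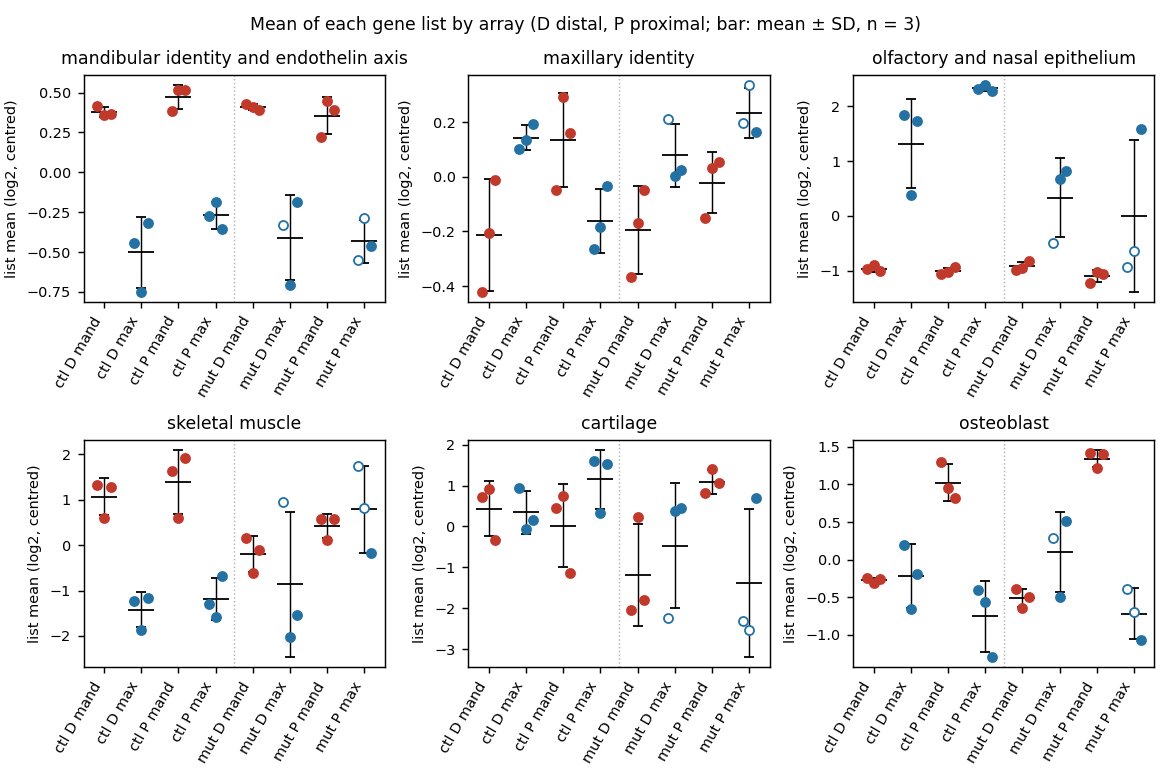
Centred log2 mean (vertical axis) over the genes of 6 lists on each array, by genotype, end and jaw (horizontal axis); red is mandible, blue is maxilla, open circles are the 3 mutant maxilla arrays low in nasal genes, and bars are the mean ± SD of 3 arrays. The mandibular identity means of mutants, 0.22 to 0.45 in mandible and -0.71 to -0.19 in maxilla, do not overlap, while the open circles lie apart from the other mutant maxillae in the nasal, muscle and cartilage lists.

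The jaw difference in mutants depended on the end. At the distal ends 549 genes differed (4.29%; 256 higher and 293 lower in mandible, 2.00% and 2.29%) and at the proximal ends 2165 (16.9%; 935 higher and 1230 lower, 7.30% and 9.60%). The interaction of jaw and end was called for 1325 genes (10.3%), 643 upwards (5.02%) and 682 downwards (5.32%). All of these counts include the maxilla arrays set apart above, among them proximal maxilla 1 and 2. These counts leaned on single mandible arrays: the distal count fell to 231, 363 and 293 without distal mandible 1, 2 and 3, the proximal count to 1404 without proximal mandible 1, and the interaction count to 863 without distal mandible 3. Osteoblast genes differed by end, with 11 of 11 higher in mutant proximal mandible, 3 of 11 lower in distal mandible and 11 of 11 called for the interaction. With ends averaged, 7 were higher, also without the 3 arrays, beside 9 in controls. The osteoblast list mean was also higher in proximal mandible in controls. It read 1.3, 0.95 and 0.82 there, against -0.40, -0.56 and -1.29 in control proximal maxilla. In control distal mandible it read -0.25, -0.30 and -0.26, and in control distal maxilla 0.19, -0.65 and -0.20. Whether the end differences given here and below are particular to mutants was not tested.

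Dmp1, a bone matrix protein of maturing osteoblasts and osteocytes, read 13.50, 13.03 and 13.29 in mutant proximal mandible and 10.57, 9.84 and 9.68 in proximal maxilla. At the distal end it read 10.17, 9.32 and 9.40 in mandible and 12.03, 10.38 and 12.49 in maxilla. Mandible was the higher jaw at the proximal end, by 3.24 ± 0.54 (limma adjusted p = 0.00043), and the lower at the distal end, at -2.00 ± 0.54 (limma adjusted p = 0.0428). Sp7, the osteoblast factor osterix, Alpl, alkaline phosphatase, and Panx3, a channel of osteoblasts and hypertrophic cartilage, were 2.25, 2.03 and 2.98 at the proximal end. Mmp13, a collagenase of hypertrophic cartilage and bone, read 12.69, 12.34 and 12.38 in proximal mandible and 5.49, 5.63 and 4.52 in proximal maxilla. The fitted proximal difference was 7.26 ± 0.88 (limma adjusted p = 2.06e-05), with all 3 proximal maxilla values below the array medians and without a detection call.

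Of all genes, 7.30% were higher in mutant proximal mandible and 5.08% with ends averaged, and in controls 16.9% were higher and 19.4% lower. Cartilage genes were 10 higher of 19 in mutant proximal mandible and 2 higher of 19 with ends averaged, beside 1 higher and 2 lower in controls. This rested on the 3 maxilla arrays: without them the list gave 1 higher and 2 lower in mutants, and its median turned from 0.76 to -0.76, beside -0.61 in controls. Acan, the cartilage proteoglycan aggrecan, Matn3, a matrilin, and Snorc, a cartilage membrane proteoglycan, were 3.59, 4.03 and 3.50 at the proximal end. Without the 3 arrays, Acan at the proximal end was 0.918 and Mmp13 was 7.95, both against 1 proximal maxilla array. Distal mandible 1 and 3 also read low in the cartilage list, at -2.03 and -1.79. Comp, a cartilage and tendon matrix protein, was called at 2.11 with ends averaged and not without the 3 arrays (adjusted p = 0.364).

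Isl1, a LIM homeodomain factor of the mandibular epithelium and distal midline, was high in mandible at one end and low at the other. It read 11.64, 11.07 and 11.51 in mutant distal mandible and 9.20, 9.46 and 10.70 in distal maxilla. At the proximal end it read 6.16, 6.55 and 6.36 in mandible and 8.66, 8.75 and 9.29 in maxilla. The jaw differences of 1.62 and -2.54 differed by 4.16 ± 0.63 (limma interaction adjusted p = 0.000353). Qrfpr, a neuropeptide receptor, read 8.56, 8.53 and 8.86 in mutant distal mandible and 4.36, 4.39 and 5.05 in distal maxilla. Its difference was 4.05 ± 0.17 at the distal end (limma adjusted p = 4.4e-11) and 0.04 at the proximal end. Among other distal differences were Krt6b and Krt13, keratins of oral epithelium, at 3.69 and 2.95, and Odam, a gene of dental epithelium, at 3.22.

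Of all genes, 2.00% were higher in mutant distal mandible, 9.60% lower in proximal mandible and 10.3% called for the interaction. With ends averaged, 5.08% were higher and 6.99% lower, and in controls 16.9% and 19.4%. Keratinocyte and oral epithelium genes split by end, with 4 higher and 0 lower of 23 in distal mandible, 0 higher and 12 lower in proximal mandible, and 12 called for the interaction. With ends averaged 2 were higher and 6 lower, 3 and 5 without the 3 arrays, beside 4 and 6 in controls. Krt1 and Krt10, keratins of the upper epidermis, were -2.38 and -2.24 with ends averaged, and Krt25 and Krtdap were -4.72 and -4.12 at the proximal end. First-arch crest is known to be free of Hox expression. Hoxd1 read 8.73, 8.62 and 7.72 in mutant proximal maxilla and 8.55, 4.39 and 4.43 in distal maxilla, and 4.24 to 4.50 (median 4.30) in mandible. Distal maxilla 1, one of the arrays set apart, was the high distal array. The Hoxd1 difference of -2.74 ± 0.51 in mutants stood beside 0.01 in controls (limma interaction adjusted p = 0.03), and without the 3 arrays the interaction was -1.74 (adjusted p = 0.0479). It was the 1 of 5 Hox genes called.

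**Figure D3:**
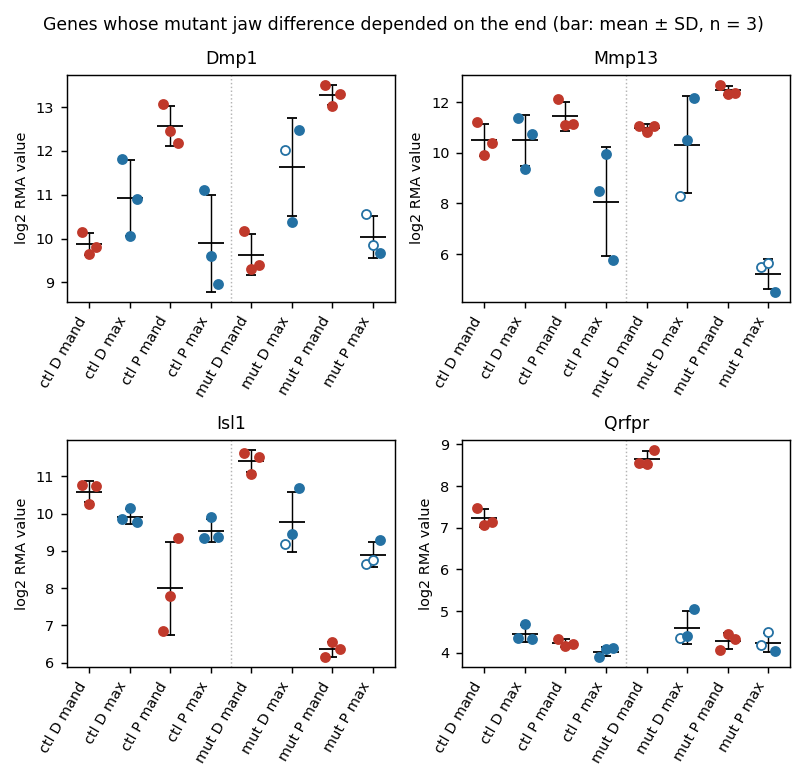
Log2 RMA level (vertical axis) of Dmp1, Mmp13, Isl1 and Qrfpr on each array, by genotype, end and jaw (horizontal axis); red is mandible, blue is maxilla, bars are the mean ± SD of 3 arrays, and open circles are the 3 mutant maxilla arrays low in nasal genes. Mutant proximal mandible is high for Dmp1 and Mmp13, while Isl1 and Qrfpr are high in mutant distal mandible.

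Control littermates gave the jaw difference against which persistence was read. In controls 4639 genes differed between the jaws (36.2%), 2160 higher (16.9%) and 2479 lower (19.4%) in mandible. All 6 mandible values lay above all 6 maxilla values for 925 genes (7.22%) and below for 1108 (8.65%). Of the 2160, 440 (20.4%) were also called higher in mutants and 13 lower, where 5.08% and 6.99% of all genes were. Of the 2479, 498 (20.1%) were also called lower in mutants and 5 higher, where 6.99% and 5.08% of all genes were. Read from the mutant side, the 440 were 67.6% of the mutant mandible-high calls and the 498 were 55.6% of the mandible-low calls. Mutant values took the control direction in 1630 of the 2160 and 2147 of the 2479 genes. Without the 3 maxilla arrays, larger shares of all genes were called each way in mutants, as given above. The next counts stand against those larger shares. With the 3 maxilla arrays left out, the shared calls were 728 of 2329 and 1340 of 2680. With end values averaged by jaw and number they fell to 200 of 1305 and 197 of 1704, where 2.06% and 2.59% of all genes were called that way in mutants. The control and mutant comparisons share no array but share 1 estimate of each gene's spread in the fit; separate fits of the 12 arrays of each genotype gave 528 shared calls in place of 938. A gene missed in mutants is not shown to have lost its difference.

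The largest control differences were read in the same way. With all arrays 5.08% of all genes were called higher and 6.99% lower in mutants, and both shares rose without the 3 arrays. Of 72 genes at least 4-fold higher in control mandible, 8 were called higher in mutants, 52 without the 3 arrays. Their median difference was 2.92 in controls, 0.19 in mutants and 1.27 in mutants without these arrays. Of 170 genes at least 4-fold lower in control mandible, 52 were called lower in mutants, 164 without the 3 arrays, with medians of -2.67, -1.21 and -2.24. The control medians are inflated by the choice of genes in controls. Across the 12811 genes the control and mutant jaw differences correlated at 0.628, and at 0.886 without the 3 arrays, as a description over genes that share arrays. The 3 arrays were set apart by their nasal, muscle and cartilage values, so the rise is no independent evidence.

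**Figure D4:**
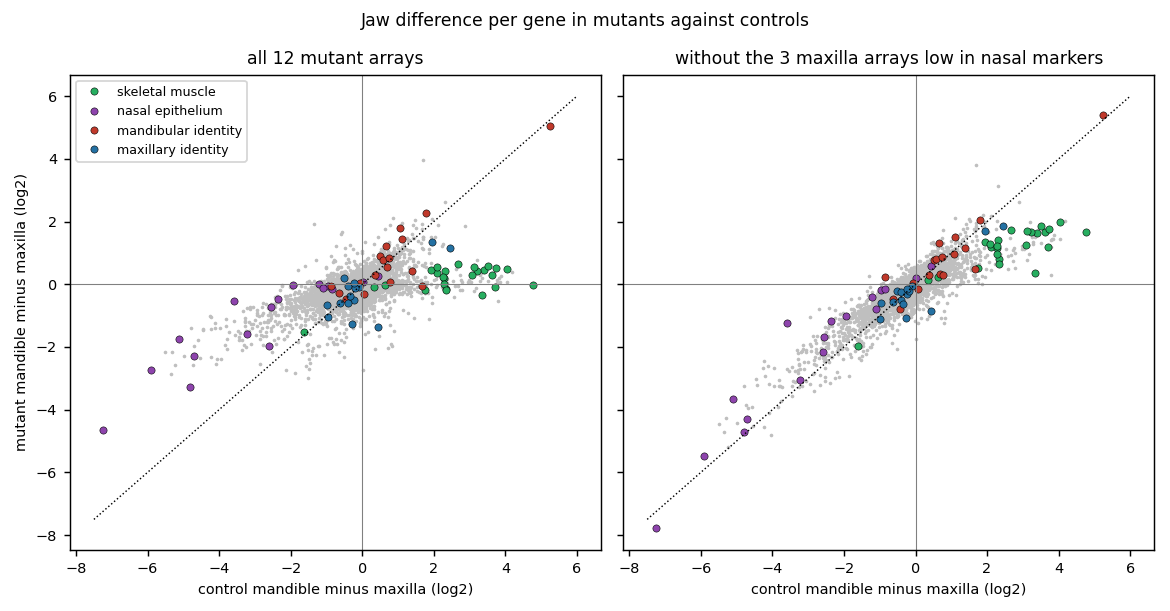
Jaw difference (mandible minus maxilla, log2) in mutants on the vertical axis against controls on the horizontal axis, 1 point per gene, with all mutant arrays on the left and without the 3 maxilla arrays low in nasal genes on the right; green is muscle, purple nasal, red mandibular identity, blue maxillary identity, and the dotted line is equality. Most muscle genes lie near 0 in mutants on the left and move up on the right, and the correlation rises from 0.628 to 0.886.

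Skeletal muscle genes were higher in control mandible but not in mutant mandible when all arrays were used. In controls 24 of 25 were higher in mandible and 1 lower, where 16.9% and 19.4% of all genes were. In mutants 0 were higher and 1 lower, where 5.08% and 6.99% of all genes were. The medians were 2.34 and 0.28, and 19 differed by genotype, where 503 (3.93%) of all genes were higher and 554 (4.32%) lower in that test. Without the 3 maxilla arrays 17 were higher and 1 lower in mutants, the median was 1.26, and 1 differed by genotype. Myh8, the perinatal myosin heavy chain, read 5.87 to 9.31 (median 7.49) in mutant mandible and 4.58 to 11.04 (median 7.96) in mutant maxilla. Both jaws spanned a wide range, with the high maxilla values in the arrays set apart, and its genotype gap of -4.81 ± 1.12 (limma adjusted p = 0.0187) was -3.11 without them (adjusted p = 0.0846). Ckm, muscle creatine kinase, kept its call at -2.98 (adjusted p = 0.0321), and so did Thbs4, a tendon and muscle matrix protein, at -2.58 (adjusted p = 0.0047).

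The genotype difference of the jaw gap was called for 1057 genes (8.25%), for 67 (0.523%) without the 3 maxilla arrays, for 27 (0.211%) with each numbered jaw as a random block and for 6 (0.0468%) with ends averaged. Leaving out 1 array at a time gave 448 to 2400, the lowest without mutant proximal maxilla 1 and the highest without mutant proximal maxilla 3. In this paragraph, ends averaged means that distal and proximal values were averaged by jaw and number before the fit. The count of 1057 instead averages the end differences of the main fit. With ends averaged in the first way, 2178 genes had an unadjusted p under 0.05. The 6 genes called with ends averaged were also called in the first count, and 4 were called in all 4 counts: Angptl1, Fbln5, Meox1 and Tgfbi. They were chosen after their values were seen. All 4 had a lower mandible-minus-maxilla value in mutants than in controls.

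Angptl1, a secreted angiopoietin-like protein, read 10.44 to 10.63 (median 10.53) in control mandible and 8.61 to 9.11 (median 8.85) in control maxilla. In mutants it read 8.68 to 9.30 (median 8.90) in mandible and 8.63 to 9.09 (median 8.94) in maxilla. The control jaws did not overlap and the mutant jaws did, with all mutant arrays near the control maxilla level. The difference was 1.66 ± 0.09 in controls and 0.05 ± 0.09 in mutants, a gap of -1.61 ± 0.13 (limma adjusted p = 3.69e-06) that was -1.48 without the 3 arrays (adjusted p = 0.000266). Its second probe set gave 1.63 and -0.01. Meox1, a homeobox gene of mesoderm and mesenchyme, gave 1.30 ± 0.14 and -0.07 ± 0.14, a gap of -1.38 (limma adjusted p = 0.0028).

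Fbln5, an elastic fibre protein, and Tgfbi, a matrix protein induced by TGF-β, were instead lower in mutant mandible than in mutant maxilla. Fbln5 read 9.32 to 10.06 (median 9.78) in mutant mandible and 10.16 to 10.68 (median 10.42) in mutant maxilla without overlap, a difference of -0.69 ± 0.08 (limma adjusted p = 3.32e-05) beside 0.33 ± 0.08 in controls. Its genotype gap was -1.02 ± 0.11 (limma adjusted p = 0.000272). Tgfbi was -0.76 ± 0.09 in mutants (limma adjusted p = 5.45e-05) and 0.22 ± 0.09 in controls (limma adjusted p = 0.0748), a gap of -0.98 (limma adjusted p = 0.00191). Prss35 and Sult1c1 completed the 6, with gaps of -1.11 and 3.06. Sult1c1, a sulfotransferase, lost the call without the 3 arrays (adjusted p = 0.0765).

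**Figure D5:**
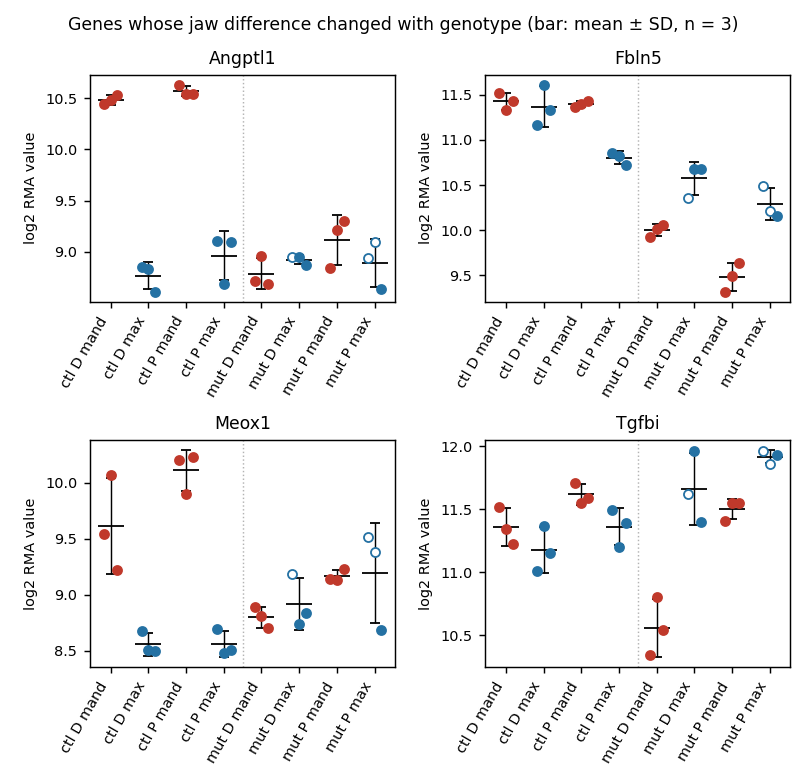
Log2 RMA level (vertical axis) of Angptl1, Fbln5, Meox1 and Tgfbi on each array, by genotype, end and jaw (horizontal axis); red is mandible, blue is maxilla, bars are the mean ± SD of 3 arrays, and open circles are the 3 mutant maxilla arrays low in nasal genes. Angptl1 and Meox1 are high in control mandible and overlap between the mutant jaws, while Fbln5 and Tgfbi are lower in mutant mandible than in mutant maxilla.

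Of 20 TGF-β ligands, receptors and Smads, 2 were higher and 2 lower in mutant mandible, where 5.08% and 6.99% of all genes were. The counts were 2 and 2 with the 3 maxilla arrays left out, and 6 and 5 in controls, where the all-gene shares were 16.9% and 19.4%. Itgav, an integrin subunit that helps release latent TGF-β, was higher without overlap, by 0.40 ± 0.06, and Ltbp4, a latent TGF-β binding protein, lower without overlap, at -0.46 ± 0.09 (both called by limma). Tgfbr3, the coreceptor betaglycan, was -0.68. For the genotype counts that follow, 3.93% of all genes were called upwards and 4.32% downwards. Of 21 TGF-β response genes, 1 was higher and 4 lower in mutants, 3 and 5 without the 3 arrays, beside 8 and 4 in controls. By genotype 4 differed, all downwards, and 2 without the 3 arrays. Eln, elastin, read 9.91 to 10.17 (median 10.02) in mutant mandible and 10.53 to 10.81 (median 10.69) in mutant maxilla without overlap, at -0.63 ± 0.07 (limma adjusted p = 3.42e-05) beside -0.23 in controls. Pmepa1, a feedback inhibitor of the pathway, was the 1 higher gene, at 0.23. Tendon and ligament genes gave 1 higher and 4 lower of 12, 2 and 3 without the 3 arrays, beside 5 and 2 in controls. By genotype 5 differed, 2 without the 3 arrays. Mkx, a tendon homeobox factor, was 0.96 and Col14a1, a fibril-associated collagen, -1.39 without overlap.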

How the data were processed

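Per the submitters' processing notes, the authors made the deposited log2 values with RMA in Partek 6.6; the sources used here name no build or settings. Labels state 5 µg total RNA per labelling. Of 45101 probe sets, 34945 had 1 gene symbol, 932 several and 9160 none; the brightest set stood for each of 18193 genes, and 12811 above the array median in at least 3 of 24 arrays were tested. The 8 groups of 3 were fitted with limma 3.58.1 in R 4.3.3 (lmFit, eBayes; Benjamini-Hochberg over all genes tested, threshold 0.05); ± is a standard error. The code was tested on simulated data. The members and the 31 lists (546 entries, 465 tested) were chosen with earlier results of these data known. Named genes were all members of both identity lists, the 15 largest called differences each way without overlap in mutants and in controls, the 6 largest each way at each end and in both interactions, Tgfbr2, and up to 4 members of each other list by p; sex-linked genes and clone names were skipped. Other filters, probe set rules, normalisations, blocks, covariates and left-out arrays were tried as alternatives. In 12 of them a control array was left out, which leaves mutant jaw differences unchanged and alters only the shared spread. Tallies of kept mutant calls include these settings, which test such calls only weakly. Precision is limited by how many arrays there are. The labels do not say what a replicate number marks, and the main fit has no block. Same-numbered ends of a jaw tended to vary together (consensus correlation 0.437), though not every pair did. The main fit counts these ends as separate arrays, so its p-values with ends averaged may be too small. With each numbered jaw as a random block, mutant calls were 254 higher and 323 lower in place of 651 and 896. Persisting calls were then 355 in place of 938, and genotype calls 27 in place of 1057.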

Additional observations from a re-analysis of the deposited data

Results flagged for a closer look

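Genes whose jaw difference differed between mutants and controls numbered 1057, and genes whose mutant jaw difference differed between ends numbered 1325, each by the interaction term of the limma fit. Of the genotype gaps (mutant minus control jaw difference, log2), Myh8 was -4.81, Ttn -3.80, Tnnt3 -3.78, Thbs4 -3.74, Ckm -3.69 and Sln -3.65; these are genes of muscle except Thbs4, a matrix gene of tendon and muscle. Mef2c was -0.69, Cited1 -1.72 and Six4 0.71. The largest positive gaps were Sult1e1 3.38, Uncx 3.22, Trim66 3.18, Sult1c1 3.06, Svopl 3.03 and Sult1d1 2.79, in which the gene was high in control maxilla. In Sult1e1, Uncx, Trim66, Svopl and Sult1d1 the mutant arrays distal maxilla 1, proximal maxilla 1 and proximal maxilla 2 read under 5, and proximal maxilla 3 read 9.07, 8.64, 8.59, 7.6 and 7.7. Mutant mandible read 4.64 to 5.09 (median 4.80) for Sult1e1. Whether the pieces differed in the tissue taken was not tested.

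Of the end gaps in mutants (distal minus proximal jaw difference, log2), Them5 was 4.37, Arg1 4.31, Serpinb12 4.28, Isl1 4.16, Capns2 4.05 and Qrfpr 4.01. On the other side Mmp13 was -6.60, Dmp1 -5.24, Col22a1 -4.72, Col11a2 -4.36, Cgref1 -4.15 and Mia -4.05, of which Col11a2 and Mia are cartilage genes.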

How the results depend on the processing

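Persisting calls (called in controls and the same way in mutants) numbered 938. In the order mutant ends averaged, distal ends, proximal ends, jaw by end, controls, genotype by jaw and persisting calls, array weights gave 2488, 907, 4492, 2813, 6993, 3755 and 1566. The fit on the 12 arrays of a genotype gave 746, 146, 1166, 584 for the first 4 and 528 persisting. Averaging the distal and proximal values gave 596 in mutants, 3009 in controls, 6 by genotype and 397 persisting. A random block for each numbered jaw (consensus correlation 0.437) gave 577 in mutants, 27 by genotype and 355 persisting. Without the 3 mutant maxilla arrays low in nasal genes, mutants gave 2420, the genotype test 67 and persisting calls 2068. With nasal and muscle list means as covariates the distal count was 1641, jaw by end 2487, controls 242, genotype 13 and persisting 186. The cause of these shifts was not tested.

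The replicate block of genotype and number gave 2711 in mutants, 1440 distal, 3724 proximal, 2853 jaw by end, 2522 by genotype and 1663 persisting. Deviations of same-numbered samples correlated at -0.087 to 0.695 (median 0.227) in mutants and 0.0248 to 0.537 (median 0.293) in controls, and those of different numbers at medians of -0.144 and -0.169. The samples varied together by number, as a hint from the data; not every pair passed 0.1, and the labels do not say what a number marks.

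Leaving out 1 array at a time gave 1076 to 1725 calls in mutants, 231 to 526 at distal ends, 1404 to 2046 at proximal ends, 863 to 1430 for jaw by end, 4011 to 4397 in controls, 448 to 2400 by genotype and 683 to 1225 persisting. The genotype count was 629 without control distal mandible 1, 533 and 549 without control distal maxilla 1 and 3, 592 and 632 without control proximal mandible 1 and 3, and 620 without control proximal maxilla 1. It was 670 and 646 without mutant distal mandible 1 and 3, and 448, 506 and 2400 without mutant proximal maxilla 1, 2 and 3.

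For single named genes, 7286 values under alternatives kept direction and call, 667 lost the call, 145 gained it and 23 changed sign, all 23 with the list means as covariates. The mutant differences became 1.04 for Olig2 and 0.64 for Sult1d1. The control differences became -0.11 for Acta1, 0.98 for Aldh1a1, 0.85 for Bpifa1, 0.77 for Cldn9, 1.65 for Dynlrb2, 0.29 for Fezf1, 0.63 for Insm1, -0.065 for Myh8, 0.22 for Neurod1, 1.22 for Nhlh2, 0.049 for Nr2f6, 1.00 for Otx2, 0.29 for Six2, 0.61 for Six4, 0.53 for Sp8, 0.43 for Sult1e1, 0.28 for Svopl, -0.21 for Ttn and 0.19 for Zfhx3. The genotype gaps became -0.024 for Six4 and 0.29 for Ttn. Several of these genes belong to the lists used as covariates. The number of arrays and the signal over background limit what can be called.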

Other observations

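Several lists of other cell types were read against all-gene shares of 5.08% higher and 6.99% lower in mutant mandible, and 16.9% and 19.4% in controls. Both mutant shares were larger without the 3 maxilla arrays low in nasal genes, as given above. The endothelial and macrophage counts without those arrays lay near that larger share of lower calls. Endothelial genes were 7 lower and 0 higher of 17, with Erg at -0.48 and Kdr at -0.28, and 2 lower without the 3 maxilla arrays low in nasal genes; controls gave 2 higher and 1 lower. Macrophage genes were 6 lower of 16, with Mrc1 at -1.01 and Fcgr3 at -0.78, and 2 lower without those arrays. The macrophage list mean lay at 0.54 to 0.88 in the 3 arrays and at -0.31 to 0.22 in the other mutant maxillae. Smooth muscle and mural genes were 4 lower of 8, but 1 higher and 2 lower without those arrays, and erythroid genes 2 higher of 6 in both. Tongue and salivary genes gave 3 higher and 1 lower of 14, but 2 higher and 7 lower without those arrays, beside 3 and 8 in controls. Cell cycle genes gave 1 higher of 22, hypoxia and glycolysis genes 1 higher and 1 lower of 17, sulfotransferases 2 lower of 7, but 1 higher and 5 lower without those arrays, as many as in controls, and brain and pituitary genes 0 of 3.

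All 12 mutant arrays carried both Xist and the Y-linked gene Eif2s3y, with Xist from 12.5 to 13.3 and Eif2s3y from 8.13 to 9.59. In controls Xist ranged from 6.28 to 13.4 and Eif2s3y from 7.47 to 10.2.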
